A study of Mus musculus with 4 samples.

Results

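The 9 genes described here encode proteins of the podocyte slit diaphragm and foot process: Nphs1, Kirrel, Cd2ap, Magi2, Ptpro, Podxl, Synpo, Plce1 and Trpc6. They were picked out by symbol, with no threshold on their values, and all 9 were found among the 22809 genes of the deposited expression table. Poly(A) RNA of mouse glomeruli, the filtering units of the kidney, was sequenced in 4 libraries at 3 weeks of age. In 2 libraries the mice were labelled HDAC KO, with a podocyte-specific knockout that the series title gives as loss of Hdac1 and Hdac2. The other 2 libraries came from mice labelled Control (WT), which had no treatment. Each library pooled glomeruli of 2 mice, and the series describes 2 independent experiments. The labels give neither the promoter that drives the deletion nor the alleles of the control mice. The comparison asks how these transcripts differ in glomeruli whose podocytes are labelled as lacking both histone deacetylases.

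Podocytes wrap the glomerular capillaries with interlocking foot processes. Neighbouring foot processes are joined by the slit diaphragm, a cell junction built from nephrin (Nphs1) and its partner Neph1 (Kirrel), both of the immunoglobulin superfamily. Scaffolds and adaptors such as MAGI2 and CD2AP tie these receptors to signalling proteins and to actin. The apical surface above the junction carries podocalyxin (Podxl) and the phosphatase PTPRO, and synaptopodin (Synpo) binds actin inside the foot process. Inherited defects in several of these genes cause proteinuria in humans.

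Promoter windows from RefSeq on GRCm38.p6, running from 250 bases before to 50 bases after a gene's start, were matched by symbol for 7 of the 9 genes. Those of Nphs1, Ptpro and Cd2ap are shown because these were the 3 tested members in which the HDAC KO-labelled and control libraries did not overlap. Capitals mark CG dinucleotides, the only motif searched, which reads the same on both strands and occurs in 94.6% of the 32851 windows.
Nphs1: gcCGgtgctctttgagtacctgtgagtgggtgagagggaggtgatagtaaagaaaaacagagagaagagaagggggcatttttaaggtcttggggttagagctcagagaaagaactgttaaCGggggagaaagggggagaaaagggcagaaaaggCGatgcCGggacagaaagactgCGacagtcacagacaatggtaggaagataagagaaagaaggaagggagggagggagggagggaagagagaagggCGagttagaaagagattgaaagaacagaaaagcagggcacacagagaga
Ptpro: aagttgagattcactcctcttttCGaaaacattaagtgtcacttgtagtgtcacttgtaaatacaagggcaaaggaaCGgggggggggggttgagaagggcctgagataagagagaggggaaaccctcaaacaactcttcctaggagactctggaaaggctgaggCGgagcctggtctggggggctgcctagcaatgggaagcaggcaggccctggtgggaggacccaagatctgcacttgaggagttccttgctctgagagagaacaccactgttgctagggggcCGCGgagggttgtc
Cd2ap: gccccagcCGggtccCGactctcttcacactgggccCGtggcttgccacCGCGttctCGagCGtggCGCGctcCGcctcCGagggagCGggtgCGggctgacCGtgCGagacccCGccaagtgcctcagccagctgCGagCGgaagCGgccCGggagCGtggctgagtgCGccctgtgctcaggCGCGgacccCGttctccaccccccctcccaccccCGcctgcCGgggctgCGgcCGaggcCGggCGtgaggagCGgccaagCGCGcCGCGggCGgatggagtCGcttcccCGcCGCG
The window of Nphs1 lies at chr7:30459808-30460107 on the plus strand, that of Ptpro at chr6:137252049-137252348 on the plus strand and that of Cd2ap at chr17:42876375-42876674 on the minus strand. The median window held 7 CG dinucleotides. That of Nphs1 held 6 and that of Ptpro 5. That of Cd2ap held 41, and 96.5% of all windows held fewer. Of the other windows, that of Plce1 held 8, that of Trpc6, whose transcript was also lower in both HDAC KO-labelled libraries, 17 and that of Kirrel 28, and the 2 of Magi2 held 29 and 4. The RefSeq starts of Nphs1 and Cd2ap lie inside the span that GENCODE gives each gene, and that of Ptpro lies just outside it. Those of Kirrel, Plce1 and Magi2 also lie inside.

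The values are TPM, which correct for gene length and are scaled to 1000000 in each library. The length that matched them was the union of all annotated exons of a gene, 15864 bases for Cd2ap against 5488 for Podxl. This need not be the length of the transcript expressed, so comparisons of level between genes are approximate. Whole reads recovered from the TPM values numbered between 12876939 and 20943138 per library, and the share of TPM in mitochondrially encoded genes was 38.7% to 46.5%. The targeted transcripts did not check the labels: Hdac1 was at 22.9 and 22.5 TPM in the HDAC KO-labelled libraries, against 19.3 and 18.6 TPM in the control libraries. Hdac2 was at 23.5 and 20.9 TPM in the HDAC KO-labelled libraries and at 20.2 and 24.1 TPM in the control libraries. Whole glomeruli also hold cells that the deletion leaves out, and every direction given here rests on the labels.

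The libraries differed in the summed levels of cell type marker lists. A list of 20 proximal tubule genes summed to 6835 and 7761 TPM in HDAC KO-labelled replicates 1 and 2, against 47717 and 11601 TPM in control replicates 1 and 2, so that control replicate 1 stood apart. Kap, a proximal tubule gene of that list, alone was at 31100 TPM in control replicate 1 and between 987 and 1200 TPM in the other libraries. A list of 16 glomerular endothelial genes summed to 369 and 771 TPM in the HDAC KO-labelled libraries and to 434 and 950 TPM in the control libraries, with replicate 2 higher in each group. The 17 immune cell genes summed to 1839 and 2037 TPM in the HDAC KO-labelled libraries, against 144 and 440 TPM in the control libraries, and the 9 parietal epithelial genes to 986 and 773 TPM in the HDAC KO-labelled libraries, against 257 and 304 TPM in the control libraries. A list of 21 podocyte markers that holds none of the 9 members summed to 756 and 958 TPM in the HDAC KO-labelled libraries and to 1232 and 1209 TPM in the control libraries. Its sums include Col4a4, at 221 and 248 TPM in the HDAC KO-labelled libraries against 426 and 285 TPM in the control libraries. Col4a3 was at 109 and 146 TPM in the HDAC KO-labelled libraries, against 299 and 220 TPM in the control libraries. With the tested markers weighed equally, the centred mean log2 level overlapped between the groups. It was -0.68 and 0.07 in the HDAC KO-labelled libraries, against -0.04 and 0.65 in the control libraries. No gene of these lists was at 0 in all libraries. The part that these differences have in the results below was not tested. In such bulk samples, fewer podocytes and less RNA per podocyte cannot be told apart.

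**Figure D1:**
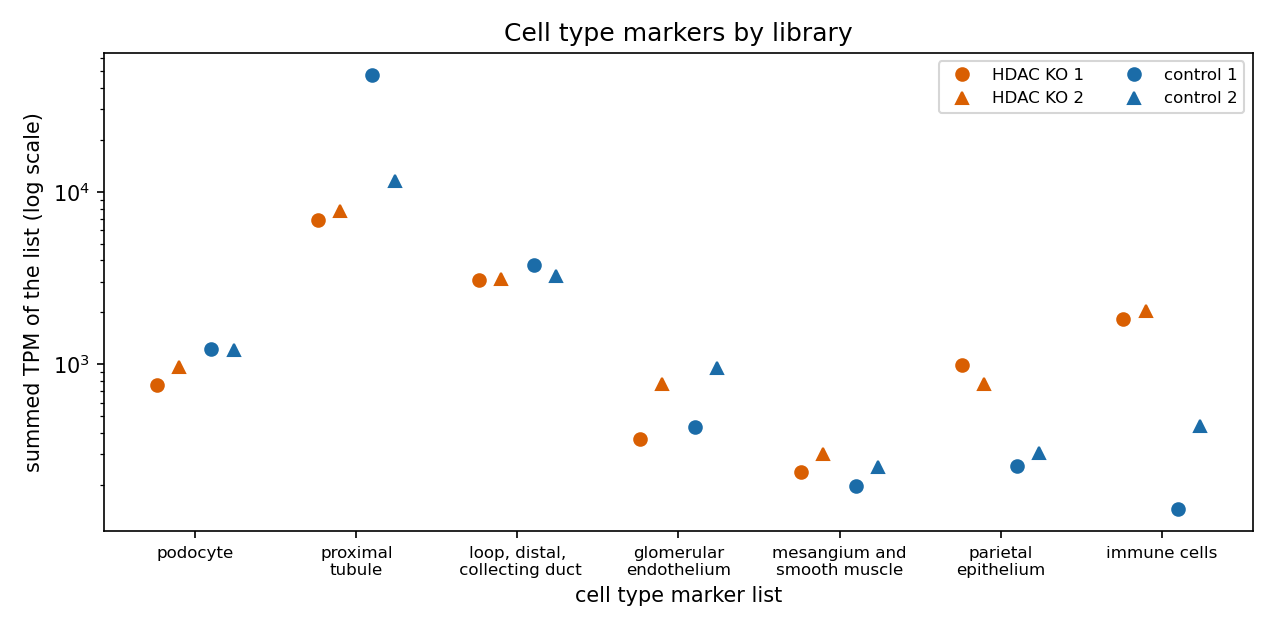
Summed TPM (log axis) of each cell type marker list in the 2 HDAC KO-labelled libraries (orange) and the 2 control libraries (blue); circles are replicate 1 and triangles replicate 2. The immune list sits at 1839 and 2037 TPM in the HDAC KO-labelled libraries, above 144 and 440 TPM in the control libraries, while endothelial sums differ more between replicates than between groups.

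The 9 genes did not move as a block. Nphs1, Ptpro and Trpc6 were lower in both HDAC KO-labelled libraries than in both control libraries, Cd2ap was higher in both, and the libraries of Kirrel, Magi2, Podxl, Synpo and Plce1 overlapped. The test was limma on log2(TPM + 1) across the 18612 genes with a mean of at least 1 TPM, with Benjamini-Hochberg adjustment over all of them. Of the 9 members, 8 entered it, and Trpc6 was left out by the filter. None of the 8 passed an adjusted p of 0.05, in a comparison in which 0.00537% of tested genes passed. At an unadjusted p under 0.05, limma had 2 of the 8 lower (Nphs1 and Ptpro) and 1 higher (Cd2ap), beside 4.46% and 13.4% of all tested genes. Voom on the recovered reads called 0 of the 8 as well; at an unadjusted p under 0.05 it had the same pair lower, beside 5.35% of genes, and Cd2ap higher, beside 14.1%. Among all tested genes, 14.3% had both HDAC KO-labelled values below both control values and 36.7% had both above. The median log2 fold change of the 8 tested members was -0.72, beside 0.17 over all tested genes. With no filter, that of all 9 was -0.48, beside 0.16 over all genes. Trpc6 enters it at -0.48, on a scale that understates changes of genes at its low level. The median of the 8 was -0.11 with scaling to the podocyte list, -0.16 without control replicate 2, -0.41 without HDAC KO-labelled replicate 1 and -1.28 without control replicate 1. The spread between replicates was large for these genes. Replicate 2 exceeded replicate 1 for 8 of 9 members in the HDAC KO-labelled group, Cd2ap being the exception, and for 9 of 9 in the control group.

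**Figure D2:**
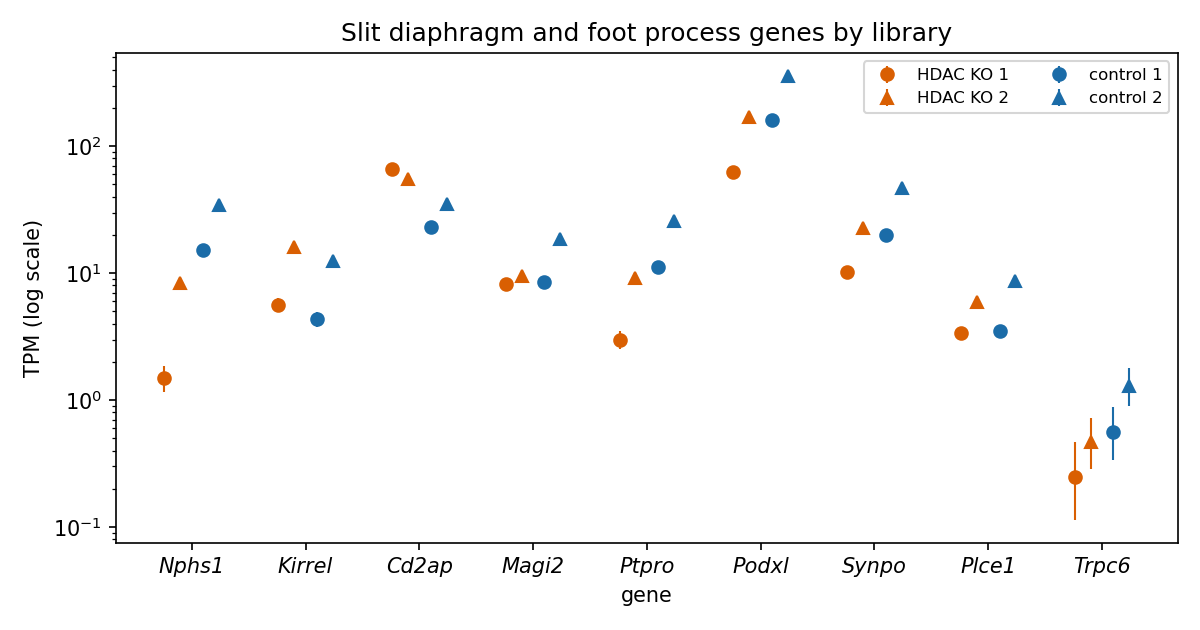
TPM (log axis) of the 9 genes in each library; orange is HDAC KO-labelled and blue is control, circles are replicate 1, triangles replicate 2, and bars are 95% Poisson intervals of the recovered reads. Nphs1 and Ptpro lie lower in both HDAC KO-labelled libraries and Cd2ap lies higher, while Kirrel differs more between replicates (5.65 and 16.2 TPM in the HDAC KO-labelled libraries, 4.33 and 12.4 TPM in the control libraries) than between groups.

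Nphs1 encodes nephrin, the receptor that spans the slit between foot processes (chromosome 7, 30458315 to 30487223, plus strand, GRCm38). It was at 1.48 and 8.43 TPM in HDAC KO-labelled replicates 1 and 2, against 15.3 and 34.7 TPM in control replicates 1 and 2. Both HDAC KO-labelled libraries were below both control libraries, and the libraries of each group were also far apart. These values rest on 70 and 467 reads in the HDAC KO-labelled libraries and on 679 and 1227 reads in the control libraries. Nphs1 averaged 4.96 ± 4.92 TPM in the HDAC KO-labelled libraries and 25 ± 13.7 TPM in the control libraries (SD, n = 2 each). By limma, it had a log2 fold change of -2.32 (SE 0.71) and an adjusted p of 0.190, and 0.188% of all tested genes had a lower one. The direction held in all alternatives run, with log2 fold changes from -3.28 without HDAC KO-labelled replicate 2 to -1.36 without HDAC KO-labelled replicate 1. Of the exon bases of Nphs1, 11.8% are shared with the antisense gene Nphs1os or with a ribosomal pseudogene. Nphs1os had between 0 and 11 reads in a library, and since the labels give no strand setting for counting, reads in the shared bases cannot be assigned with certainty.

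Kirrel encodes Neph1, which binds nephrin across the slit (chromosome 3, 87078593 to 87174747, minus strand). It was at 5.65 and 16.2 TPM in the HDAC KO-labelled libraries, against 4.33 and 12.4 TPM in the control libraries. Replicate 2 was 2.87-fold above replicate 1 in both groups, and the groups overlapped. Kirrel had a log2 fold change of 0.34 (SE 0.62) with an adjusted p of 0.826 by limma, and of -0.35 without HDAC KO-labelled replicate 2 and -0.33 without control replicate 1. In each HDAC KO-labelled library the transcript of Kirrel was thus above that of Nphs1, and in each control library it was below it. Its paralogs were barely detected. Kirrel2, which lies 624 bases from Nphs1 on the opposite strand, had 1 and 11 reads in the HDAC KO-labelled libraries, against 9 and 15 reads in the control libraries. Kirrel3 had 24 and 42 reads in the HDAC KO-labelled libraries, against 10 and 10 reads in the control libraries. Neither paralog passed the filter.

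Cd2ap encodes the adaptor that binds the nephrin tail and links it to actin and to endocytosis (chromosome 17, 42792951 to 42876665, minus strand). It was at 66.3 and 55.1 TPM in the HDAC KO-labelled libraries, against 23.0 and 35.3 TPM in the control libraries. Both HDAC KO-labelled libraries were above both control libraries, on 2442 to 7528 reads each. Means were 60.7 ± 7.92 TPM in the HDAC KO-labelled libraries and 29.2 ± 8.72 TPM in the control libraries (SD, n = 2 each). For Cd2ap limma gave a log2 fold change of 1.06 (SE 0.25) and an adjusted p of 0.132, and the fold change stayed positive in all alternatives run. The adjusted p of Cd2ap lay between 0.0260 and 0.982 over those alternatives. It passed only without control replicate 2 (log2 fold change 1.36, adjusted p = 0.0260), a setting in which 1558 genes were called higher. Cd2ap is not particular to podocytes, and the immune and parietal lists were higher in the same libraries; their part in its value was not tested.

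Magi2 encodes a membrane-associated scaffold that binds nephrin (chromosome 5, 19227036 to 20704792, plus strand). It was at 8.14 and 9.49 TPM in the HDAC KO-labelled libraries, against 8.52 and 18.7 TPM in the control libraries. Control replicate 2 stood above the other 3 libraries, which lay close together. For Magi2 limma gave a log2 fold change of -0.48 (SE 0.38) and an adjusted p of 0.572. The fold change turned positive, at 0.04 without control replicate 2 and 0.13 with libraries scaled to the podocyte marker list.

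Podxl encodes podocalyxin, the sialylated mucin that coats foot processes and keeps them apart, and which vascular endothelium also makes (chromosome 6, 31519488 to 31563981, minus strand). It had the highest mean level of the 9 genes in each group, although Cd2ap was slightly above it in HDAC KO-labelled replicate 1. Podxl was at 63.0 and 171 TPM in the HDAC KO-labelled libraries, against 160 and 355 TPM in the control libraries. HDAC KO-labelled replicate 2 was just above control replicate 1, so the groups overlapped. Podxl had a log2 fold change of -1.19 (SE 0.58) and an adjusted p of 0.360 by limma. It was -0.48 without HDAC KO-labelled replicate 1, -0.62 without control replicate 2 and -1.90 without HDAC KO-labelled replicate 2. Ptpro encodes a receptor tyrosine phosphatase of the apical foot process membrane (chromosome 6, 137252319 to 137463233, plus strand). It was at 2.99 and 9.21 TPM in the HDAC KO-labelled libraries, against 11.1 and 25.9 TPM in the control libraries, with no overlap. Its log2 fold change by limma was -1.5 (SE 0.58) with an adjusted p of 0.268, and it lay between -2.18 (without HDAC KO-labelled replicate 2) and -0.82 (without HDAC KO-labelled replicate 1) over the alternatives run, with -0.92 without control replicate 2.

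Synpo encodes synaptopodin, which bundles actin with alpha-actinin in the foot process (chromosome 18, 60593973 to 60660142, minus strand). It was at 10.3 and 22.6 TPM in the HDAC KO-labelled libraries, against 20 and 47.1 TPM in the control libraries. The groups overlapped, by HDAC KO-labelled replicate 2 and control replicate 1. Synpo had a log2 fold change of -0.96 (SE 0.51) and an adjusted p of 0.406 by limma. It was -0.36 without control replicate 2, -0.43 without HDAC KO-labelled replicate 1, -1.49 without HDAC KO-labelled replicate 2 and -1.56 without control replicate 1. Plce1 encodes phospholipase C epsilon, a signalling enzyme mutated in a childhood nephrotic syndrome of humans (chromosome 19, 38481109 to 38785030, plus strand). It was at 3.38 and 5.92 TPM in the HDAC KO-labelled libraries, against 3.48 and 8.71 TPM in the control libraries. The lower ends of these ranges nearly coincided, and control replicate 2 stood above the other libraries. For Plce1 limma gave a log2 fold change of -0.26 (SE 0.46) and an adjusted p of 0.819, but the fold change was 0.07 without HDAC KO-labelled replicate 1, 0.30 without control replicate 2 and 0.35 with scaling to the podocyte list.

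Trpc6 encodes a cation channel of the slit diaphragm that can carry calcium into podocytes (chromosome 9, 8544142 to 8680741, plus strand). It had 9 and 20 reads in the HDAC KO-labelled libraries, against 19 and 35 reads in the control libraries. In TPM these were 0.248 and 0.472 in the HDAC KO-labelled libraries, against 0.561 and 1.29 in the control libraries. The 95% exact Poisson intervals, which cover counting error only, ran from 0.113 to 0.471 and from 0.288 to 0.729 TPM in the HDAC KO-labelled libraries. Those of the control libraries ran from 0.338 to 0.875 and from 0.900 to 1.80 TPM. The interval of HDAC KO-labelled replicate 2 overlapped that of control replicate 1, so the difference between these libraries was not detectable at this depth. With no filter, limma gave a log2 fold change of -0.48 for Trpc6 (adjusted p = 0.427).

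The order of levels differed between the groups. In the HDAC KO-labelled libraries the mean TPM was 117 for Podxl, 60.7 for Cd2ap, 16.5 for Synpo, 10.9 for Kirrel, 8.81 for Magi2, 6.10 for Ptpro, 4.96 for Nphs1, 4.65 for Plce1 and 0.360 for Trpc6. In the control libraries it was 258 for Podxl, 33.5 for Synpo, 29.2 for Cd2ap, 25 for Nphs1, 18.5 for Ptpro, 13.6 for Magi2, 8.38 for Kirrel, 6.10 for Plce1 and 0.926 for Trpc6. Nphs1 was thus in place 7 in the HDAC KO-labelled group and in place 4 in the control group. Most neighbours in either order had overlapping ranges. The ranges of neighbours were apart between Cd2ap and Synpo and between Plce1 and Trpc6 in the HDAC KO-labelled group, and between Podxl and Synpo and between Plce1 and Trpc6 in the control group.

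Ratios between members within a library do not depend on how that library was scaled. In the control libraries most of them were nearly the same in both replicates, those of Cd2ap and Kirrel least so, although replicate 2 held more of every member. The ratio of Podxl to Nphs1 was 42.7 and 20.3 in the HDAC KO-labelled libraries, against 10.4 and 10.2 in the control libraries. That of Magi2 to Nphs1 was 5.51 and 1.13 in the HDAC KO-labelled libraries, against 0.556 and 0.539 in the control libraries. For Synpo the ratio was 7.0 and 2.68 in the HDAC KO-labelled libraries and 1.3 and 1.36 in the control libraries. The nephrin transcript was therefore lower relative to these genes in both HDAC KO-labelled libraries, and the most so in replicate 1.

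Kirrel relative to Nphs1 was at 3.83 and 1.92 in the HDAC KO-labelled libraries, against 0.282 and 0.359 in the control libraries, an 8.53-fold difference. Counting intervals of this ratio (95%, exact binomial on the reads) were 2.94 to 5.04 and 1.72 to 2.15 in the HDAC KO-labelled libraries, against 0.241 to 0.329 and 0.322 to 0.398 in the control libraries. Cd2ap relative to Nphs1 was at 44.9 and 6.53 in the HDAC KO-labelled libraries, against 1.5 and 1.02 in the control libraries, a 13.8-fold difference. Ptpro differed least, at 2.03 and 1.09 in the HDAC KO-labelled libraries and 0.724 and 0.747 in the control libraries, a 2.02-fold difference. All 8 ratios were higher in both HDAC KO-labelled libraries, but so were those of 94.1% of the tested genes that were above 0 in all libraries, while 0.0328% were lower, so this count reads the low level of Nphs1 itself. The exact permutation test, two-sided, gave p = 0.33 for each of the 8 ratios, the smallest that 2 libraries against 2 allow.

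The summed endothelial list was also used as a denominator, chosen after the values were seen, because its sums differed between replicates as the members did. Nphs1 was at 0.400% and 1.09% of the endothelial sum in the HDAC KO-labelled libraries, against 3.54% and 3.65% in the control libraries. Podxl was at 17.1% and 22.2% in the HDAC KO-labelled libraries, against 36.9% and 37.4% in the control libraries. Synpo was at 2.80% and 2.93% of that sum in the HDAC KO-labelled libraries, against 4.61% and 4.96% in the control libraries. On this scale Podxl and Synpo no longer overlapped between the groups. Trpc6 was at 0.0673% and 0.0612% in the HDAC KO-labelled libraries, against 0.129% and 0.136% in the control libraries. Plce1 overlapped, at 0.916% and 0.768% in the HDAC KO-labelled libraries and 0.804% and 0.917% in the control libraries. In all, Nphs1, Ptpro, Podxl and Synpo were lower in both HDAC KO-labelled libraries, beside 2.83% of tested genes, and Kirrel and Cd2ap were higher, beside 25.1%. Trpc6, which is not among the tested genes, was lower as well, on 9 to 35 reads. The denominator was chosen for following the members between replicates, so less overlap is in part built in and these counts are not independent support. The exact permutation test, two-sided, cannot go below 0.33 here either, and limma with libraries scaled to the mean log2 level of the endothelial list called 0 of the 8 tested members.

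**Figure D3:**
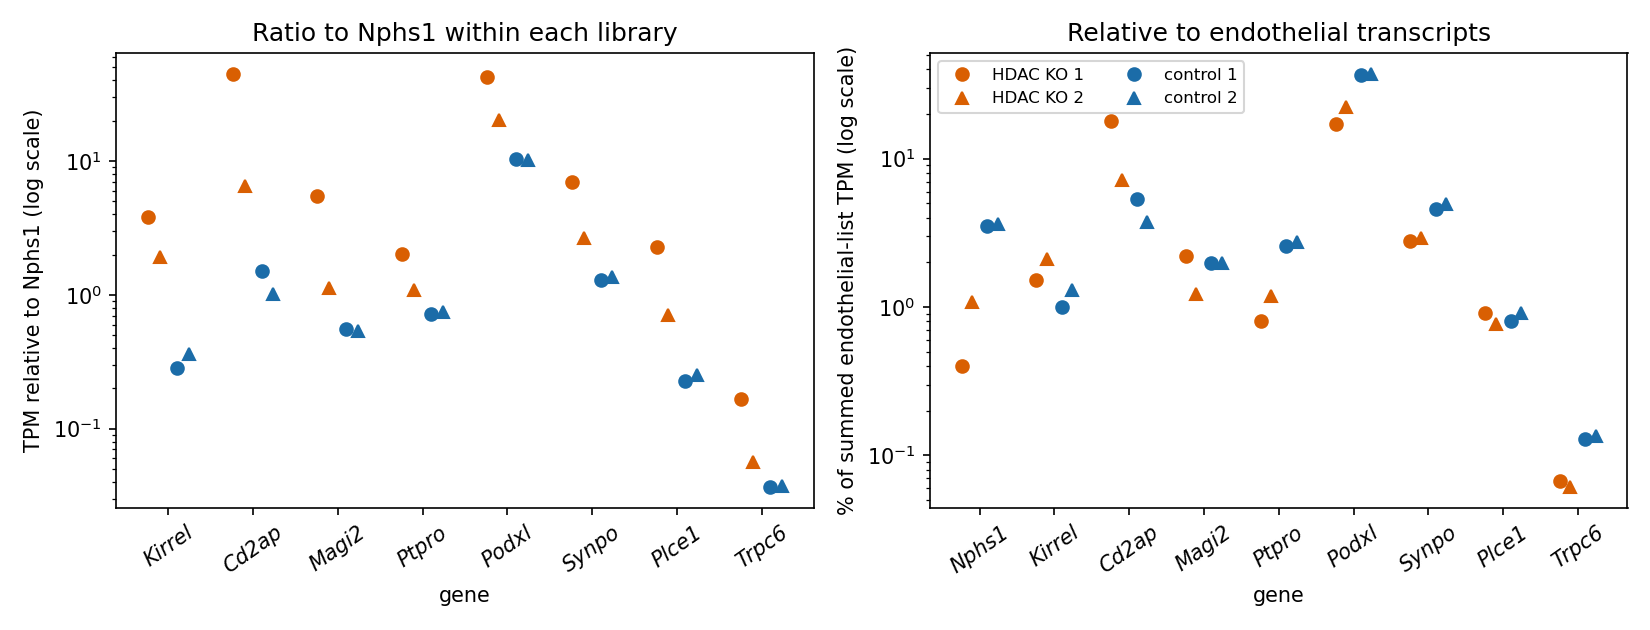
Left, TPM of 8 genes relative to Nphs1 in each library; right, TPM of all 9 genes as a percentage of the summed endothelial list; both axes are log scales, orange is HDAC KO-labelled, blue is control, circles are replicate 1 and triangles replicate 2. The control libraries nearly coincide for Nphs1 on the right (3.54% and 3.65%), and the HDAC KO-labelled libraries lie below them at 0.400% and 1.09%.

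The scaling of the libraries changed few signs. Nphs1, Ptpro, Podxl and Synpo had negative log2 fold changes, and Cd2ap positive ones, with TPM as deposited, median-ratio scaling, quantile normalization, TPM without mitochondrial and tubule genes, and scaling to the podocyte or endothelial list. Under scaling to the podocyte markers, the log2 fold change of Nphs1 was -1.71 (SE 0.57, adjusted p = 0.0376 by limma), the only setting in which Nphs1 passed. In that setting 1467 genes were called higher and 32 lower, and the median over all genes was 0.78. Relative to its SE, the change of Nphs1 was no larger there than as deposited (-2.32, SE 0.71, adjusted p = 0.190 by limma). Its pass under podocyte-list scaling is therefore not stronger evidence of a lower level. The adjusted p of Nphs1 lay between 0.0376 and 0.554 over the alternatives. The log2 fold change of Podxl was -0.58 and that of Synpo -0.34 under the same scaling, neither past the threshold.

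**Figure D4:**
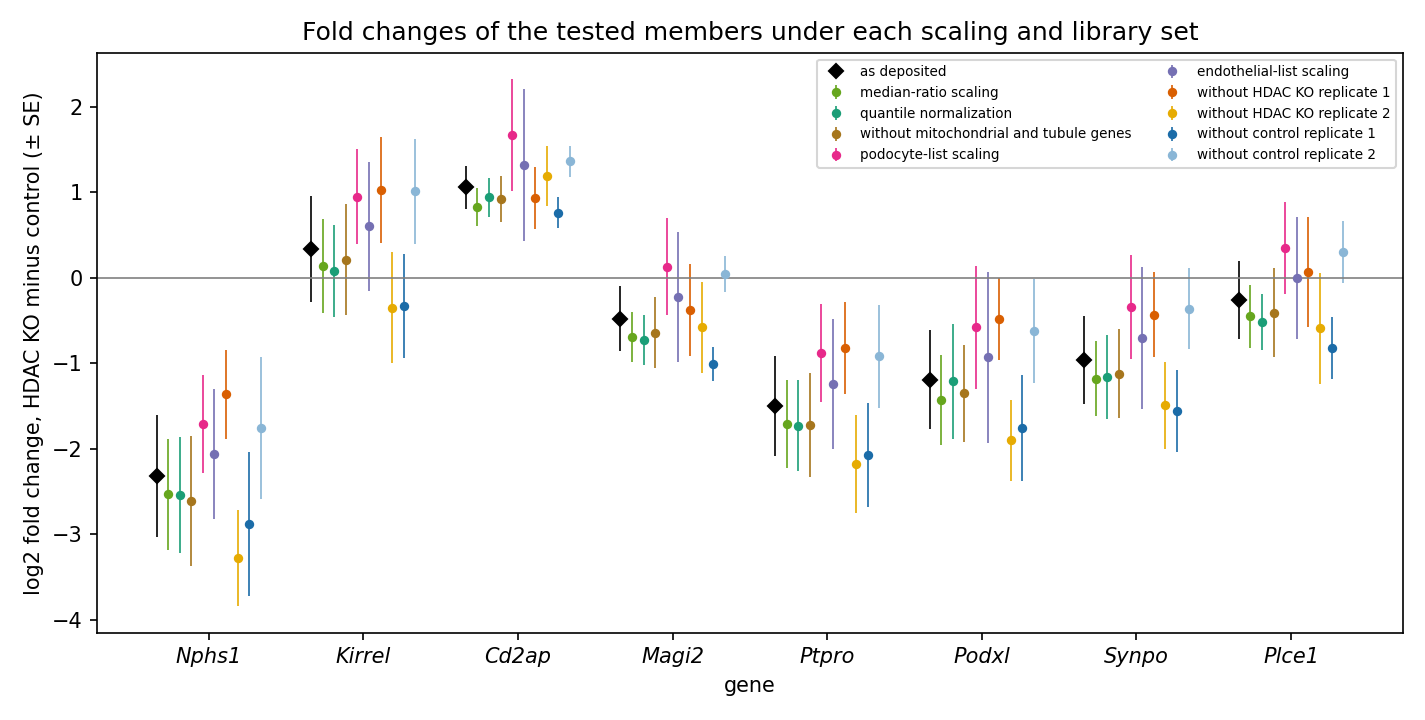
Log2 fold change (HDAC KO-labelled minus control) of the 8 tested genes as deposited (black diamonds) and under other scalings or without 1 library (circles); bars are SE. Nphs1 stays below 0 at every setting drawn and Cd2ap above 0, while Kirrel, Magi2 and Plce1 cross 0.

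Other genes of the slit diaphragm and foot process were taken from a list of 51 symbols, of which 48 entered the test. None of the 48 passed limma at an adjusted p of 0.05, and 0 passed with voom. At an unadjusted p under 0.05, 16 were higher and 4 lower by limma, beside 13.4% and 4.46% of all tested genes. Their median log2 fold change was 0.39, against -0.72 for the 8 tested members and 0.17 over all tested genes. Both HDAC KO-labelled libraries were above both control libraries for 30 of the 48 (62.5%, beside 36.7% of all tested genes), and below for 4 (8.33%, beside 14.3%). With median-ratio scaling, which put the median of all genes at -0.03, the median of the list was 0.16. Many of these genes are made by most cell types of the kidney.

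Of 6 tested junction receptors and adhesion proteins, 3 were higher without overlap and 2 lower (50% and 33.3%, beside 36.7% and 14.3% of all tested genes). Fat1, a giant protocadherin of this role, was at 101 and 109 TPM in the HDAC KO-labelled libraries, against 51.0 and 59.1 TPM in the control libraries. Its log2 fold change by limma was 0.92 (SE 0.16). By the same test Sirpa, a signal regulatory receptor also made by macrophages, was at 129 and 131 TPM in the HDAC KO-labelled libraries, against 51.1 and 75.9 TPM in the control libraries (1.05, SE 0.23). Crb2, a polarity protein of the slit that was chosen after its values were seen, was at 0.605 and 2.21 TPM in the HDAC KO-labelled libraries, against 3.64 and 5.56 TPM in the control libraries. Among scaffolds and polarity proteins, 5 of 8 tested genes were higher without overlap and 1 lower (62.5% and 12.5%, beside 36.7% and 14.3% of all tested genes). The adjusted p of Fat1 was 0.106 by limma and did not pass.

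Of 16 tested actin and small GTPase regulators, 12 were higher in both HDAC KO-labelled libraries and 1 was lower (75% and 6.25%, beside 36.7% and 14.3% of all tested genes). Cttn, which encodes the branched-actin protein cortactin, was at 126 and 127 TPM in the HDAC KO-labelled libraries, against 75.7 and 81.1 TPM in the control libraries. Arhgdia, which encodes an inhibitor of small GTPase cycling, was at 249 and 264 TPM in the HDAC KO-labelled libraries, against 150 and 159 TPM in the control libraries. Anln, the cytokinesis protein anillin, was at 8.45 and 7.70 TPM in the HDAC KO-labelled libraries, against 1.39 and 3.01 TPM in the control libraries. Was, the WASP gene of blood cells, had 81 and 136 reads in the HDAC KO-labelled libraries, against 5 and 14 reads in the control libraries. It was higher in the same libraries as the immune list, and the part of immune cells in its value was not tested. All 5 tested genes of basal adhesion had positive log2 fold changes, 4 of them without overlap (80%, beside 36.7% of all tested genes). Their median was 0.41, beside 0.17 over all tested genes. Of 9 tested adaptors and signalling genes, 4 were higher without overlap (44.4%, near the 36.7% of all tested genes) and 0 lower, with log2 fold changes from 0.09 to 0.77.

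**Figure D5:**
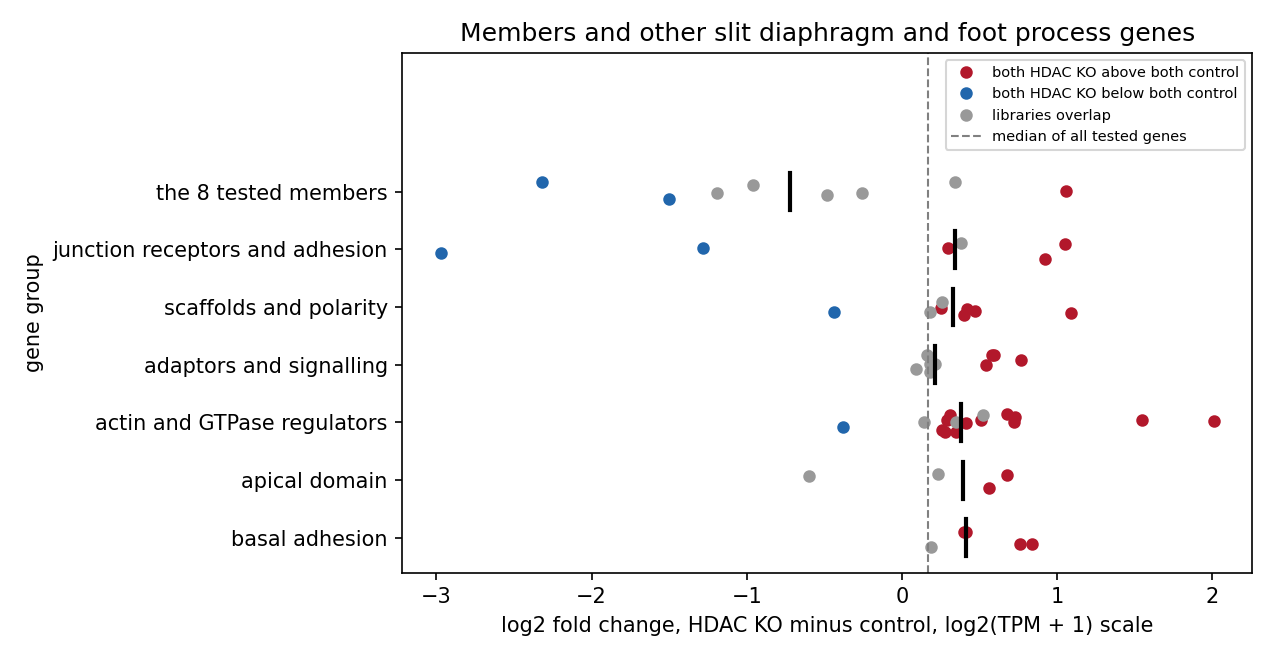
Log2 fold change (HDAC KO-labelled minus control) of the tested members and of the 48 tested genes of the wider list by role; each point is a gene, red where both HDAC KO-labelled libraries were above both control libraries, blue where below and grey where they overlapped, with black bars at group medians. The members' median lies at -0.72 and the median of each other role between 0.21 and 0.41, near or above the dashed line at 0.17 for all tested genes.

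The genes most like Nphs1 over the 4 libraries were sought by the smallest sum of squared differences in centred log2(TPM + 1), among 4847 genes with a mean of at least 20 TPM. They included Egf (0.842), Sema3g (1.32), Miox (1.4) and Podxl (1.4). Egf, a growth factor gene of the distal nephron, was at 45.3 and 103 TPM in the HDAC KO-labelled libraries, against 201 and 273 TPM in the control libraries. Sema3g, a semaphorin on the podocyte marker list, was at 16.2 and 41.6 TPM in the HDAC KO-labelled libraries, against 50.1 and 85.1 TPM in the control libraries. With 4 libraries, such likeness also takes in tubule genes such as Miox.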

How the data were processed

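Expression was measured by RNA sequencing of poly(A) RNA in 4 glomerular libraries, 2 labelled HDAC KO and 2 control. Column names gave the sample of each of the 4 columns. The authors deposited TPM values for 22809 Ensembl genes. GRCm38.p6, STAR 2.7.9, fastp 0.20, DESeq2 1.30.1 and featureCounts 2.0.0 appear, with no role or order, in the submitters' processing notes; the annotation, strand setting and gene filter were not given in the sources used here. TPM times the union of exon lengths in GENCODE M21 gave whole multiples of 1 step per library for 22176 genes (97.2%, relative tolerance 1e-06); these multiples are the reads quoted, which measure precision by counting error only.

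Genes with a mean of at least 1 TPM were tested with limma 3.58.1 (R 4.3.3; lmFit, eBayes with trend) on log2(TPM + 1), with no covariate; fold changes on this scale understate changes of low genes. The code was tested on simulated reads. Alternatives were pseudocounts of 0.1 and 5, a filter at a mean of 5 TPM or none, 5 scalings (that to the endothelial list chosen after seeing the data), no trend, a replicate block, voom, and each library left out, where a lone library is assumed to vary like the other group. The members, lists and roles were chosen with earlier results of these data known. Named were the members, the 8 list genes with the smallest p and no overlap, and the 5 genes most like Nphs1; not every gene so chosen is reported here. Replicates are separate pools of mice. Python 3.11.15, numpy 2.4.6, pandas 2.3.3, scipy 1.17.1 and matplotlib 3.10.9 were used. Sequences are from RefSeq on GRCm38.p6.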

Additional observations from a re-analysis of the deposited data

How the results depend on the processing

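No gene was called higher as deposited, against 1467 with scaling to the podocyte list, 107 with scaling to the endothelial list, and between 0 and 1558 with 1 library left out (1558 without control replicate 2). The count called lower was 1 as deposited, 0 with quantile normalization, 0 without trend, 0 with voom on whole reads, 32 with scaling to the podocyte list, 8 with scaling to the endothelial list, and between 0 and 522 with 1 library left out. The median log2 fold change of the wider list was 0.39 as deposited, 0.16 with median-ratio scaling, 1.0 with podocyte-list scaling and 0.65 with endothelial-list scaling; relative to all genes it lay near 0.2 in each (0.22, 0.19, 0.22 and 0.22). Nphs1 passed with podocyte-list scaling (-1.71, SE 0.57), although its change relative to its SE was no larger than as deposited (-2.32, SE 0.71). Signs were reversed for Magi2 (0.13) and Plce1 (0.35) with podocyte-list scaling. With 1 library left out, log2 fold changes ranged from -0.35 to 1.03 for Kirrel, -1.01 to 0.04 for Magi2, -0.82 to 0.30 for Plce1 and 0.76 to 1.36 for Cd2ap, which passed without control replicate 2. The cause of these changes was not tested.

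The replicate numbers are not stated to pair libraries, and same-numbered libraries deviated together only weakly over all tested genes (correlation 0.14 over 18612 genes). Among the members, replicate 2 exceeded replicate 1 for 8 of 9 in the HDAC KO-labelled group and 9 of 9 in the control group. This count is not on the same measure as the correlation, and no such share over all tested genes is given. The summed endothelial list had the same order, at 369 and 771 TPM in the HDAC KO-labelled libraries and 434 and 950 TPM in the control libraries. With the replicate number as a block, 0 genes were called higher and 1 lower, and no member passed. The adjusted p by limma was then 0.0618 for Nphs1, 0.0650 for Ptpro and Podxl, 0.0740 for Synpo and 0.104 for Cd2ap. The block lowered the SE from 0.71 to 0.28 for Nphs1 and from 0.58 to 0.22 for Ptpro. It fell from 0.58 to 0.19 for Podxl and from 0.51 to 0.18 for Synpo, and was 0.25 either way for Cd2ap. Depth limits Trpc6 the most.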

Other observations

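The make-up of the 9 transcripts as a pool differed between the groups. Nphs1 was 0.915% and 2.83% of the members' summed TPM in the HDAC KO-labelled libraries, against 6.23% and 6.43% in the control libraries. Cd2ap was 41.0% and 18.5% of it in the HDAC KO-labelled libraries, against 9.35% and 6.55% in the control libraries. Magi2 overlapped between the groups, at 5.04% and 3.18% in the HDAC KO-labelled libraries and 3.46% and 3.46% in the control libraries. Podxl was 39.0% and 57.3% of the pool in the HDAC KO-labelled libraries, against 64.9% and 65.9% in the control libraries. Shares of the same pool depend on each other, so they cannot be read as independent changes.

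Relative to Podxl, a denominator chosen after the values were seen, Synpo overlapped between the groups, at 0.164 and 0.132 in the HDAC KO-labelled libraries and 0.125 and 0.133 in the control libraries. Nphs1 relative to Podxl was at 0.0234 and 0.0493 in the HDAC KO-labelled libraries, against 0.0959 and 0.0976 in the control libraries. Ptpro relative to Podxl was at 0.0475 and 0.0539 in the HDAC KO-labelled libraries, against 0.0694 and 0.0729 in the control libraries. Kirrel relative to Podxl was at 0.0897 and 0.0949 in the HDAC KO-labelled libraries, against 0.0271 and 0.0350 in the control libraries.

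Nes, which encodes the podocyte intermediate filament nestin, overlapped between the groups where Nphs1 did not. It was at 20 and 47.0 TPM in the HDAC KO-labelled libraries and 16.5 and 45.5 TPM in the control libraries. Nes was picked from the podocyte list outside the naming rule, and its log2 fold change of 0.16 was above the list median of -0.56. Of the 20 podocyte markers tested, 8 were lower in both HDAC KO-labelled libraries and 0 higher, beside 14.3% and 36.7% of all tested genes. The channel gene Trpc5 had 18 and 11 reads in the HDAC KO-labelled libraries, against 43 and 16 reads in the control libraries.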
